A study of Mus musculus with 14 samples.

Results

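Brown adipose tissue burns fuel to make heat, and the genes followed here are 10 of its best known regulators and markers: Ppargc1a, Ppargc1b, Prdm16, Ebf2, Irf4, Ppara, Esrra, Esrrg, Dio2 and Cidea. They were taken by name from a table of 35275 genes and matched to its Ensembl identifiers. All 10 were found there, and all 10 were among the 13079 genes that reached 1 FPKM (fragments scaled to transcript length and library depth) in at least 3 libraries. Every level below is a scaled FPKM, the deposited FPKM multiplied by a factor for each library. FPKM is already divided by transcript length, so levels can be set side by side between genes.

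RNA had been sequenced from homogenised brown adipose tissue of 14 C57BL/6 mice aged 8 weeks. All carried floxed alleles of Lrpprc (LrpprcFF), a gene for a protein that stabilises mitochondrial messenger RNA. Knockouts (LrpprcFF Ucp1-Cre) also carried a Cre recombinase driven by the Ucp1 promoter, which deletes the floxed gene in cells that express Ucp1, so other cells of the tissue keep Lrpprc. Controls (LrpprcFF) had no Cre. At room temperature, 22 °C, there were 4 knockouts and 4 controls, and at thermoneutrality, 30 °C, there were 3 knockouts and 3 controls. Brown adipocytes are the cell type on the labels, yet no step to isolate them is recorded, and no sex is given.

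In brown fat, cold acts through sympathetic nerves, noradrenaline and cyclic AMP, which switch on a transcriptional programme that ends in Ucp1, the uncoupling protein that releases heat. Ppargc1a and Ppargc1b encode the coactivators PGC-1α and PGC-1β, which bind the nuclear receptors ERRα (Esrra), ERRγ (Esrrg) and PPARα (Ppara) and raise genes of mitochondria and fat oxidation. Prdm16, Ebf2 and Irf4 encode factors that set or serve brown fat identity, Dio2 the deiodinase that makes active thyroid hormone inside the cell, and Cidea a protein of the lipid droplet and a standard marker of brown fat. At 30 °C a mouse needs little extra heat and this programme is normally low.

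The promoters of Dio2, Ppargc1a and Ppara are shown because cyclic AMP acts through the element TGACGTCA and its shorter form TGACG, and because Dio2 and Ppargc1a had the widest range of levels of the 10 genes. Each run is the 250 bases before the start of the gene, 5′ to 3′ on the gene's own strand, from RefSeq on GRCm38.p6, with matches in capitals. The entries lie at chr12:90739039-90739288 (minus strand) for Dio2, chr5:51567726-51567975 (minus strand) for Ppargc1a and chr15:85735526-85735775 (plus strand) for Ppara.
Dio2: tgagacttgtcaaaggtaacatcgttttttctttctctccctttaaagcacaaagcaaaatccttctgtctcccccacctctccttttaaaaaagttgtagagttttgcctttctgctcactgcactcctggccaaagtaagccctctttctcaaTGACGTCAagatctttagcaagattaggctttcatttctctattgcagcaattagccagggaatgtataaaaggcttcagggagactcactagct
Ppargc1a: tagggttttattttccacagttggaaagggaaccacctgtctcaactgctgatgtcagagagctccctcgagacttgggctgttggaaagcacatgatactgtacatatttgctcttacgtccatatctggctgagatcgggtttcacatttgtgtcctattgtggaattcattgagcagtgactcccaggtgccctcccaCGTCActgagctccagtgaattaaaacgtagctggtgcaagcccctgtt
Ppara: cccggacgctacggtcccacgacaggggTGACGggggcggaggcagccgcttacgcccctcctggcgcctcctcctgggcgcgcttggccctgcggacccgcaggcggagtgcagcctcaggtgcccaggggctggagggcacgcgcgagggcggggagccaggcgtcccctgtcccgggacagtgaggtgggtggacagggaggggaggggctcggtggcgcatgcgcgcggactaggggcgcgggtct

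The Dio2 run holds the full TGACGTCA from base -95 to -88 before the start. This 8-letter element, which reads alike on both strands, was found in 508 of 32851 promoter runs of the same length (1.55%). TGACG, searched on both strands and contained in every TGACGTCA, was found in 5836 of them (17.8%). Ppargc1a holds it on the opposite strand, written CGTCA, from base -49 to -45, and Ppara holds it from -222 to -218. Of the 10 genes, 7 had an entry, and these 3 were the ones with a match. The element bound by estrogen-related receptors, AAGGTCA, was in 4.08% of all runs and in none of the 7 genes' runs. A match is a run of letters and was not tested as a binding site.

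Some facts of the whole data set bear on what follows. Library depth, read from the step size of low FPKM values, was 15.9 to 21.3 M fragments, so that each of the 10 genes rested on about 98 reads or more in every library (an approximate count, which covers counting error only). Lrpprc stood between 25.3 and 57.3 in the 7 controls and between 4.97 and 11.2 in the 7 knockouts. The log2 difference was -1.86 (SE 0.21, adjusted p = 0.000374) at 22 °C and -2.06 (SE 0.25, adjusted p = 0.000377) at 30 °C. Mitochondrially encoded transcripts made up 21.76 to 28.48% of the summed deposited FPKM in controls and 2.044 to 5.339% in knockouts. Genotype comparisons on the FPKM as deposited carry this difference in composition, and the scaling used here was set on nuclear genes. Xist was at most 0.0139 at 22 °C and 9.71 to 15.3 at 30 °C, while Ddx3y was 16.3 to 23.9 at 22 °C and at most 0.0242 at 30 °C. Temperature and sex, as read from Xist and Ddx3y, therefore cannot be told apart, and every comparison of 22 with 30 °C below carries both. Differences between genotypes at 1 temperature do not cross that split. At 22 °C, controls 3 and 4 have identifiers beginning with R and summed skeletal muscle markers of 8755 and 5147, against 813 and 631 in controls 1 and 2. Differences between the temperatures also followed the GC content of transcripts (over 13014 genes the rank correlation, Spearman rho, was -0.576 for the controls and -0.489 for the knockouts). With a GC correction the calls over all genes went from 5072 to 2831 in controls and from 6689 to 5298 in knockouts. For the 10 genes, values corrected for GC are given where they change a call. The temperature differences and counts of the gene lists below are given without this correction. In bulk tissue, fewer cells of a type and less RNA per cell cannot be told apart.

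The tissue label was set against lists of markers. The list called brown adipocyte markers holds Ucp1, which stood at 269 to 3359 over the 14 libraries. It also holds genes that white adipocytes express, such as Adipoq and Fabp4, so its sum does not separate brown from white fat. All 10 brown adipocyte markers listed were present, with a summed level of 18226 to 23918 in controls and 14419 to 18029.7 in knockouts at 22 °C, and of 14764 to 17774 in controls and 8124 to 10364 in knockouts at 30 °C. Of 9 white adipocyte markers, Wt1, Hoxc9, Hoxc10 and Tcf21 stayed under 1 in every library. The other 5 were present, and the list summed to 84.2 to 280.2 at 22 °C and to 226 to 575 at 30 °C.

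Among the 10 genes, Cidea was the most abundant in all 14 libraries and Esrra the next in all 14. Cidea ranged from 676 to 2163 and Esrra from 118 to 197. Ppara (26.1 to 96.6) and Ppargc1b (26.2 to 74.5) held the next places. The ratio of the highest to the lowest library was 43.6 for Dio2 and 17.3 for Ppargc1a, and it lay between 1.68 (Esrra) and 5.04 (Irf4) for the others. For Ppargc1b, the other coactivator beside Ppargc1a, it was 2.85.

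**Figure D1:**
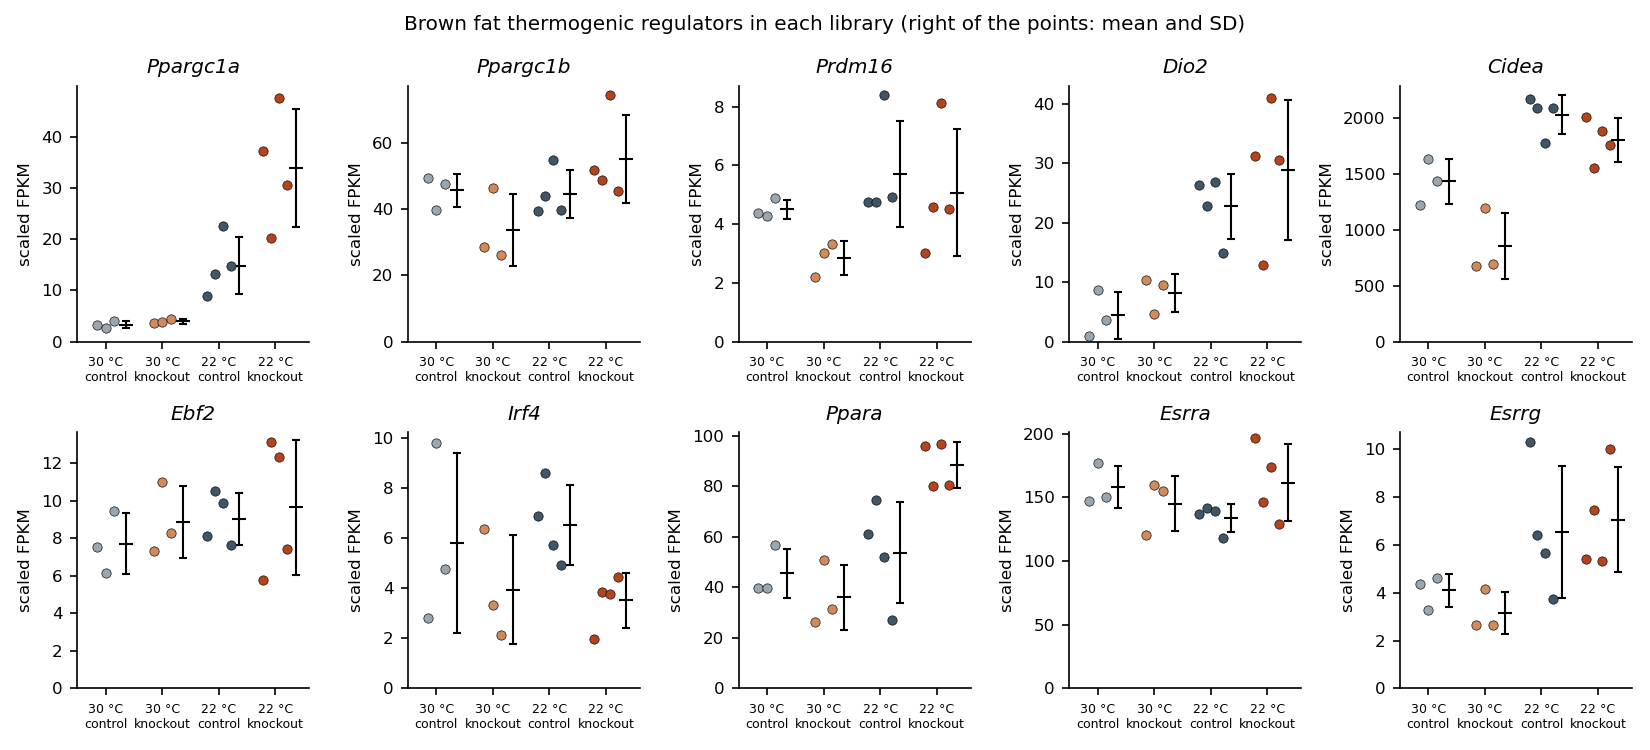
Level of each of the 10 genes in each of the 14 libraries, in scaled FPKM on a linear axis that starts at 0, by group (30 °C control, 30 °C knockout, 22 °C control, 22 °C knockout); points are animals, and the bar beside them is the mean ± SD. Ppargc1a runs from 2.75 to 47.6 and Dio2 from 0.94 to 41.0, while Esrra stays between 118 and 197.

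Ppargc1a (ENSMUSG00000029167), the coactivator that answers to cold, was the only one of the 10 genes that rose in knockouts at 22 °C. Of all 13079 genes, 15.8% had an unadjusted p under 0.05 and 1.97% passed the test in this comparison (0.91% higher in knockouts and 1.06% lower), which is limma with 1 mean per group on log2(scaled FPKM + 1), called at a Benjamini-Hochberg adjusted p under 0.05 over all genes. The 4 controls at 22 °C stood at 8.98, 13.3, 22.5 and 14.7, and the 4 knockouts at 37.2, 20.2, 47.6 and 30.5. Knockout 2 lay below control 3, and the other knockouts lay above all controls. The log2 difference was 1.14 (SE 0.26, adjusted p = 0.0411), a fitted fold of 2.2. The call held in 11 of 19 alternative analyses, with log2 differences between 0.94 and 1.48, and it was lost in 6 of the 8 that left out 1 animal, namely without control 1, 2 or 4 or knockout 1, 3 or 4 (adjusted p from 0.0698 to 0.121). It was also lost with no filter on low values (adjusted p = 0.0908) and with only these 8 libraries in the fit (adjusted p = 0.136). Without controls 3 and 4, the animals with high muscle markers, the log2 difference was 1.48 (SE 0.27, adjusted p = 0.0238).

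At 30 °C Ppargc1a was low in both genotypes. Controls stood at 3.21, 2.75 and 4.11 and knockouts at 3.67, 3.82 and 4.47, and the groups overlapped. The log2 difference was 0.2 (SE 0.3, adjusted p = 0.711). Every animal at 22 °C was above every animal at 30 °C: the log2 difference between the temperatures was 1.81 (SE 0.28, adjusted p = 0.00073) in controls, a fitted fold of 3.51, and 2.75 (SE 0.28, adjusted p = 3.3e-05) in knockouts, a fitted fold of 6.71. Both calls held in every alternative run, 18 of 18 and 17 of 17.

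Ppargc1b (ENSMUSG00000033871), the sister coactivator, is known for a steady drive of mitochondrial genes that answers less to cold. In controls it stood at 39.3, 43.8, 54.8 and 39.7 at 22 °C and at 49.3, 39.8 and 47.7 at 30 °C, and the temperatures overlapped (log2 difference -0.05, SE 0.21, adjusted p = 0.88). Knockouts at 22 °C stood at 51.9, 48.7, 74.5 and 45.4 and overlapped their controls (log2 difference 0.29, SE 0.19, adjusted p = 0.496). At 30 °C the knockouts stood at 28.7, 46.3 and 26.2. Knockout 2 was within the range of the controls and the others were below it, with a log2 difference of -0.46 (SE 0.22, adjusted p = 0.183) that was called without knockout 2. Between the temperatures, Ppargc1b rose at 22 °C in knockouts by a log2 difference of 0.71 (SE 0.21, adjusted p = 0.0112), a fitted fold of 1.64, although the ranges met between 45.4 and 46.3. With the GC correction it was 1.24 (adjusted p = 0.000807), and it missed the threshold without 30 °C knockout 1 (0.62, adjusted p = 0.0514) or 3 (0.56, adjusted p = 0.0639).

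The balance of the coactivators was read as the ratio of Ppargc1a to Ppargc1b within each library, which no scaling between libraries can change. At 22 °C the ratio was 0.229 to 0.41 in controls (mean 0.328 ± 0.0796 SD, n = 4) and 0.416 to 0.716 in knockouts (0.611 ± 0.134, n = 4). At 30 °C it was 0.065 to 0.0861 in controls (0.0734 ± 0.0112, n = 3) and 0.0825 to 0.171 in knockouts (0.127 ± 0.0442, n = 3). At 22 °C the genotypes did not overlap, and at 30 °C knockouts reached above the controls' range while overlapping it. The knockout ratio was 1.87 times the control ratio at 22 °C, as geometric means, with an exact two-sided permutation p of 0.0286, the smallest that 4 against 4 animals allow, and 0.0762 after adjustment over the 8 ratio tests. At 30 °C it was 1.67 times (exact p = 0.2, adjusted 0.267), where 3 against 3 animals allow no exact p under 0.1. The ratio at 22 °C was 4.4 times that at 30 °C in controls and 4.91 times in knockouts, each with an exact p of 0.0286, the smallest for 4 against 3, and an adjusted value of 0.0762. None of the 8 ratio tests passed 0.05 after adjustment. The genotype tests at 30 °C, bounded at 0.1, could not have passed. The others could have passed only if most of them had reached 0.0286 together. The adjusted values therefore cannot decide whether the ratios differ.

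**Figure D2:**
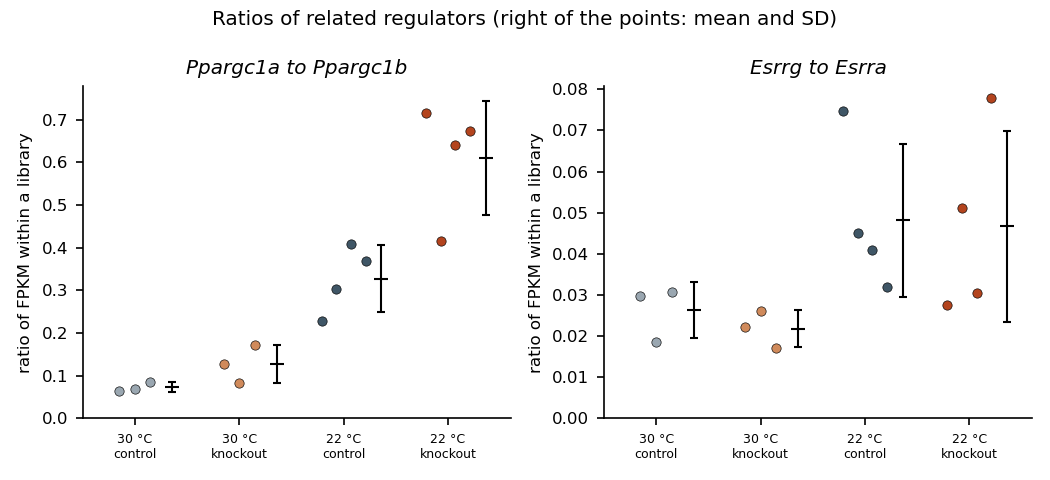
Ratio of Ppargc1a to Ppargc1b and of Esrrg to Esrra in each library, on linear axes that start at 0, by group; points are animals, and the bar beside them is the mean ± SD. The Ppargc1a to Ppargc1b ratio lies at 0.416 to 0.716 in 22 °C knockouts, above the 0.229 to 0.41 of their controls, and at or below 0.171 in every 30 °C animal.

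Ppara (ENSMUSG00000022383), the fatty acid receptor that turns on fat oxidation, stood higher in every knockout than in every control at 22 °C, yet did not pass the test. Controls stood at 61.1, 74.5, 52.0 and 27.1 and knockouts at 96.0, 80.1, 96.6 and 80.6. Among all genes 9.38% had groups that did not overlap in this comparison, and of the 10 genes Ppara and Irf4 did. The log2 difference was 0.79 (SE 0.27, unadjusted p = 0.0114, adjusted p = 0.163). It was 0.38 (SE 0.23, adjusted p = 0.393) without controls 3 and 4, the lowest Ppara levels among the controls and the highest muscle markers. Over the 14 libraries, once group means were subtracted, Ppara had a Pearson r of -0.64 with the summed muscle markers. With the summed nerve and Schwann cell markers it was -0.72. With muscle markers as a covariate the difference was 0.7 (adjusted p = 0.132).

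At 30 °C Ppara stood at 39.9, 39.8 and 56.7 in controls and 26.1, 50.6 and 31.3 in knockouts, with a log2 difference of -0.36 (SE 0.31, adjusted p = 0.492). In controls the temperatures overlapped (0.17, SE 0.29, adjusted p = 0.68), with 0.58 (adjusted p = 0.072) without controls 3 and 4 and 0.56 (adjusted p = 0.028) with sample weights. In knockouts Ppara rose at 22 °C with no overlap, by 1.32 on the log2 scale (SE 0.29, adjusted p = 0.00245), a fitted fold of 2.5, and this was called in 17 of 17 alternatives. With muscle markers as a covariate it was 1.04 (SE 0.25, adjusted p = 0.00588). Summed muscle markers were 737 to 1907 in 22 °C knockouts and 2579 to 10725 in 30 °C knockouts.

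Esrra (ENSMUSG00000024955), the estrogen-related receptor that works with PGC-1 on respiratory chain genes, varied least. At 22 °C it stood at 137, 142, 139 and 118 in controls and at 197, 146, 174 and 129 in knockouts, and at 30 °C at 147, 177 and 150.3 in controls and at 120.4, 160.0 and 155 in knockouts. The genotypes overlapped at both temperatures, with log2 differences of 0.25 (SE 0.14, adjusted p = 0.414) at 22 °C and -0.13 (SE 0.16, adjusted p = 0.646) at 30 °C. Its temperature differences depended on GC content. In controls the log2 difference of -0.24 (adjusted p = 0.22) turned to 0.42 (adjusted p = 0.112) with the GC correction, and in knockouts 0.15 (adjusted p = 0.432) became 1.11 (adjusted p = 0.000596).

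Esrrg (ENSMUSG00000026610), the estrogen-related receptor of highly oxidative tissues, was present at a far lower level. At 22 °C it stood at 10.3, 6.4, 5.67 and 3.75 in controls and 5.43, 7.47, 5.31 and 10 in knockouts, and at 30 °C at 4.38, 3.29 and 4.61 in controls and 2.66, 4.16 and 2.64 in knockouts. Genotypes overlapped at each temperature (log2 0.13, adjusted p = 0.843 at 22 °C, and -0.3, adjusted p = 0.534 at 30 °C). In knockouts Esrrg rose at 22 °C by 0.94 (SE 0.26, adjusted p = 0.0101), a fitted fold of 1.91, and by 0.61 (adjusted p = 0.0455) with the GC correction. In controls the log2 difference was 0.5 (SE 0.26, adjusted p = 0.145). Without controls 3 and 4 it was 0.85 (adjusted p = 0.0224), and with the GC correction 0.16 (adjusted p = 0.661). The ratio of Esrrg to Esrra averaged 0.0482 ± 0.0187 (SD, n = 4) in controls and 0.0468 ± 0.0232 (n = 4) in knockouts at 22 °C, against 0.0263 ± 0.00672 (n = 3) and 0.0217 ± 0.00448 (n = 3) at 30 °C. It was 1.79 times higher at 22 °C in controls (exact permutation p = 0.0571, adjusted 0.114) and 2.0 times in knockouts (exact p = 0.0857, adjusted 0.137).

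Prdm16 (ENSMUSG00000039410), the coregulator that holds cells in the brown fat fate, overlapped between genotypes at 22 °C. Controls stood at 4.77, 4.74, 8.39 and 4.91 and knockouts at 3.02, 4.6, 8.11 and 4.53, with 1 high animal in each group (log2 difference -0.17, SE 0.22, adjusted p = 0.754). At 30 °C the controls stood at 4.39, 4.27 and 4.88 and the knockouts at 2.2, 3.01 and 3.34. Every knockout was below every control, and 36.8% of all genes had groups that did not overlap, in either direction, at 30 °C. The log2 difference of -0.53 (SE 0.26, adjusted p = 0.198) did not pass the test. Between temperatures, Prdm16 passed in knockouts just under the threshold (log2 0.6, SE 0.24, adjusted p = 0.04995) and kept the call in 5 of 16 alternatives.

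Ebf2 (ENSMUSG00000022053), an early factor of the brown fat lineage, passed in no comparison. It stood at 8.11, 10.5, 9.87 and 7.62 in controls and 5.75, 13.1, 12.3 and 7.43 in knockouts at 22 °C, where knockouts spread to both sides of the controls. At 30 °C the levels were 7.55, 6.15 and 9.43 in controls and 7.33, 11 and 8.27 in knockouts. The 4 log2 differences between groups lay between 0.03 and 0.21, each with an SE from 0.22 to 0.26.

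Irf4 (ENSMUSG00000021356), a factor known both for brown fat genes after fasting or cold and for lymphocytes, was lower in every knockout than in every control at 22 °C without passing the test. Controls stood at 6.86, 8.6, 5.73 and 4.9 and knockouts at 1.95, 3.86, 3.76 and 4.45. The log2 difference was -0.75 (SE 0.32, unadjusted p = 0.0361, adjusted p = 0.274), and it was called in 0 of 18 alternatives. At 30 °C the animals scattered, with 2.81, 9.8 and 4.77 in controls and 6.36, 3.33 and 2.13 in knockouts (log2 difference -0.42, SE 0.37, adjusted p = 0.513). Summed B cell and plasma cell markers stood at 2.96 to 8.85 in controls and 4.43 to 7.91 in knockouts at 22 °C, and after subtraction of group means their Pearson r with Irf4 was -0.07 over the 14 libraries. The same r was 0.45 for brown adipocyte, 0.34 for macrophage and -0.23 for endothelial markers.

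Dio2 (ENSMUSG00000007682) followed temperature in both genotypes. At 22 °C it stood at 26.4, 22.8, 26.9 and 15 in controls and 31.2, 12.9, 41.0 and 30.5 in knockouts, and at 30 °C at 0.94, 8.68 and 3.66 in controls and 10.4, 4.6 and 9.58 in knockouts. All animals at 22 °C were above all animals at 30 °C. The log2 difference between the temperatures was 2.39 (SE 0.48, adjusted p = 0.00271) in controls, a fitted fold of 5.23, and 1.66 (SE 0.48, adjusted p = 0.0115) in knockouts, a fitted fold of 3.16. The call in controls held in 18 of 18 alternatives, and that in knockouts in 16 of 17, being lost without 30 °C knockout 2 (1.34, adjusted p = 0.0528). Genotypes overlapped at both temperatures. The knockout differences were 0.26 (SE 0.45, adjusted p = 0.826) at 22 °C and 0.98 (SE 0.51, adjusted p = 0.236) at 30 °C, where the controls alone spanned 0.94 to 8.68.

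Cidea (ENSMUSG00000024526) was the one gene of the 10 that fell in knockouts at 30 °C, a comparison in which 14.1% of all genes passed (8.82% higher and 5.28% lower in knockouts) and 28.3% had an unadjusted p under 0.05. Controls stood at 1224, 1630.1 and 1437 and knockouts at 676, 1190.4 and 696, so every knockout was below every control. The log2 difference was -0.78 (SE 0.2, adjusted p = 0.0214), 1.72-fold lower. It was -0.49 (adjusted p = 0.0862) on the FPKM as deposited, -0.4 (adjusted p = 0.26) with quantile normalization, and -1.05 (adjusted p = 0.00151) without knockout 2. It missed the threshold as well with no filter (adjusted p = 0.0668), with equal nuclear totals (adjusted p = 0.0529) and with only these 6 libraries in the fit (adjusted p = 0.0993). The call was also lost without control 2 or 3 or without knockout 1 or 3, with adjusted p between 0.0578 and 0.101, and it held in 7 of 16 alternatives. In the same comparison 6 of the 10 brown adipocyte markers fell, and 12 of 13 macrophage markers rose, with summed levels of 131 to 454 in controls and 703 to 2168 in knockouts. The part of these markers in the Cidea difference was not tested.

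At 22 °C Cidea stood at 2163, 2083, 1772 and 2089 in controls and 2009, 1547, 1881 and 1758 in knockouts, and the groups overlapped (log2 difference -0.17, SE 0.17, adjusted p = 0.68, turning to 0.31 with quantile normalization and 0.13 on the FPKM as deposited). Cidea rose with the lower temperature in knockouts (log2 1.12, SE 0.19, adjusted p = 0.000472, a fitted fold of 2.17), a call that held in 17 of 17 alternatives. In controls it was 0.51 (SE 0.19, adjusted p = 0.0475), called in 7 of 18 alternatives and not without controls 3 and 4 (0.58, adjusted p = 0.0592). With the GC correction it was 0.8 (adjusted p = 0.0196).

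**Figure D3:**
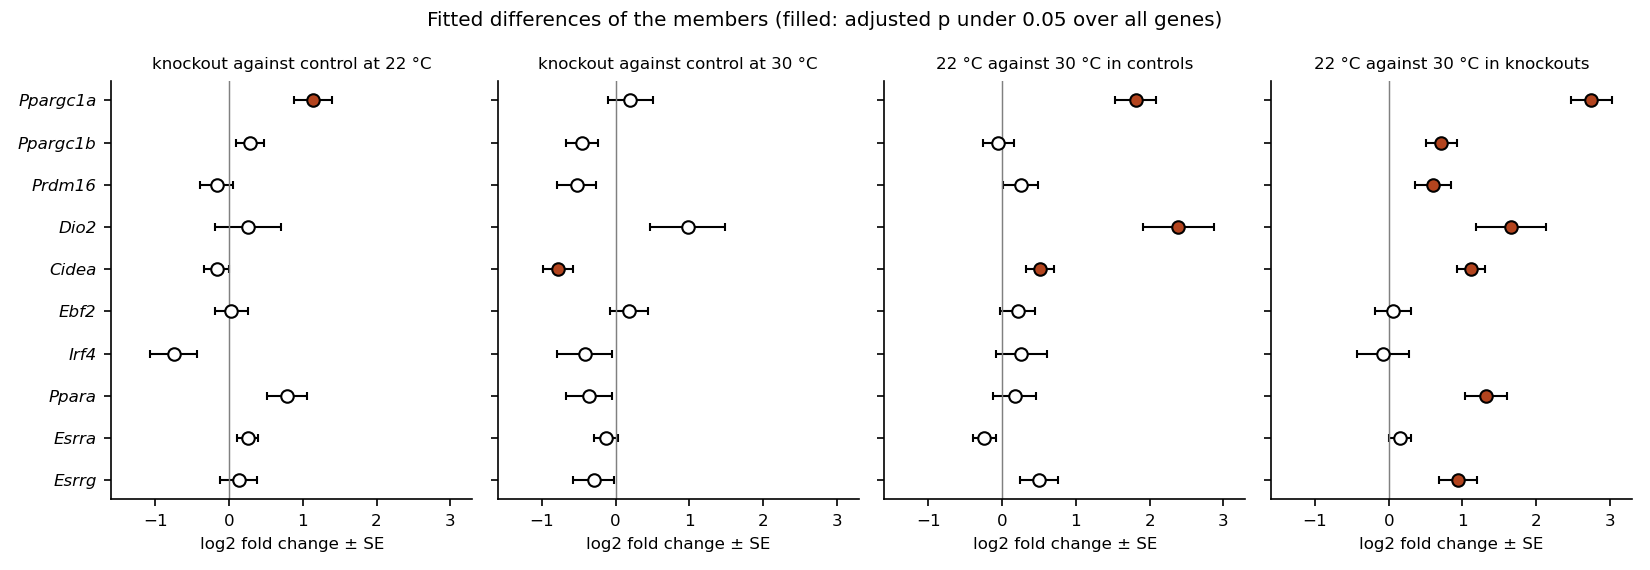
Log2 differences (points) with their standard errors (bars) for the 10 genes in the 4 comparisons, on the log2(scaled FPKM + 1) scale; filled points passed an adjusted p under 0.05. Ppargc1a is filled for knockouts at 22 °C (1.14), Cidea for knockouts at 30 °C (-0.78), 3 genes for temperature in controls and 7 for temperature in knockouts.

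Counted over the 10 genes, more of them passed between the temperatures in knockouts than between the genotypes at either temperature. The same order held over all genes, of which 51.1% passed between the temperatures in knockouts. Between the genotypes 1.97% passed at 22 °C and 14.1% at 30 °C. Higher at 22 than at 30 °C were 3 in controls (Ppargc1a, Dio2 and Cidea), where 38.8% of all genes passed, 18.2% higher and 20.6% lower at 22 °C, and 48.7% had an unadjusted p under 0.05. In knockouts 7 were higher (those 3 with Ppargc1b, Prdm16, Ppara and Esrrg), where 51.1% passed, 21.8% higher and 29.4% lower, and 57.6% had an unadjusted p under 0.05. In controls the number was between 2 and 5 over the alternatives, and in knockouts between 5 (without any 1 of the 30 °C knockouts) and 8 (with the GC correction). None of the 10 passed as lower at 22 °C in either genotype. The temperatures did not overlap for 4 of the 10 in controls (Ppargc1a, Dio2, Cidea and Esrra), against 43.5% of all genes, and for 5 in knockouts (Ppargc1a, Dio2, Cidea, Ppara and Esrrg), against 55.8%. The median log2 difference of the 10 was 0.25 in controls and 0.82 in knockouts, against -0.05 and -0.07 over all genes. The knockouts at 22 °C enter both the genotype comparison and the temperature comparison, so these are not independent counts.

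Whether the knockout effect differed between the temperatures was tested as an interaction. It sets the animals at 22 °C against those at 30 °C, so it too carries the split in Xist and Ddx3y. No gene of the 13079 passed, a share of 0.0% (197 passed without 30 °C knockout 2), and 1694 (13.0%) had an unadjusted p under 0.05. Of the 10 genes, 4 had an unadjusted p under 0.05. The interaction by limma was 1.16 (SE 0.41, adjusted p = 0.269) for Ppara, 0.94 (SE 0.39, adjusted p = 0.337) for Ppargc1a, 0.76 (SE 0.29, adjusted p = 0.294) for Ppargc1b and 0.61 (SE 0.27, adjusted p = 0.357) for Cidea. In each the knockout effect was more positive at 22 °C. None passed after adjustment in any alternative, so the difference in the number of genes called between genotypes and temperatures was not itself shown by this test.

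The genes around the 10 were described by lists of their partners, signals and targets. Upstream, none of 25 genes of cyclic AMP signalling passed in knockouts at 22 °C, where 1.97% of all genes did. At 30 °C Nr4a3, an immediate early nuclear receptor, rose (log2 1.81, SE 0.45, adjusted p = 0.0188). Its mean was 0.38 ± 0.234 (SD, n = 3) in controls, under 1, and 4.71 ± 4.19 (n = 3) in knockouts, a spread nearly as large as the mean. The adenylyl cyclase Adcy6 (-0.99, SE 0.18, adjusted p = 0.00448) and the protein kinase A subunit Prkaca (-0.64, SE 0.2, adjusted p = 0.0453) fell. Over all genes 8.82% rose and 5.28% fell in that comparison. Between temperatures 6 of the 25 rose and 6 fell at 22 °C in controls, where 18.2% of all genes rose and 20.6% fell. In knockouts 7 rose and 7 fell, where 21.8% of all genes rose and 29.4% fell. Higher at 22 °C in controls were, among others, Nr4a3 (1.56, SE 0.42, adjusted p = 0.0124, against the same low 30 °C controls), Pde4d (0.89, SE 0.27, adjusted p = 0.0211) and Pde3b (0.88, SE 0.25, adjusted p = 0.0157). Prkar2b was higher in knockouts (1.36, SE 0.23, adjusted p = 0.00054). Among those lower at 22 °C in controls was the receptor gene Adrb1 (-1.3, SE 0.37, adjusted p = 0.0144). Nr4a1, which cyclic AMP is known to induce, was lower at 22 °C, with log2 differences of -2.83 (SE 0.69, adjusted p = 0.00718) in controls and -4.86 (SE 0.69, adjusted p = 0.000176) in knockouts.

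Of 45 coregulators and partners tested, none passed in knockouts at 22 °C, where 1.97% of all genes did. At 30 °C 6 rose and 1 fell, where 8.82% of all genes rose and 5.28% fell. On the FPKM as deposited, 17 of them were called higher at 22 °C and 20 at 30 °C. Those values carry the difference in mitochondrial share and raise the median gene by 0.24 at 22 °C and 0.31 at 30 °C. Klf11 (log2 0.65, SE 0.2, adjusted p = 0.0468) and Zfp516 (0.52, SE 0.15, adjusted p = 0.0392) were among those that rose. The one that fell was Sirt3, the mitochondrial deacetylase (-0.55, SE 0.16, adjusted p = 0.0343). At 22 against 30 °C 11 rose and 9 fell in controls, where 18.2% of all genes rose and 20.6% fell. In knockouts 14 rose and 17 fell, where 21.8% of all genes rose and 29.4% fell. Foxo1 and Fnip1 were higher in both genotypes and Cebpa lower in both.

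Of 9 genes of thyroid hormone handling, the setting in which Dio2 works, 5 rose and 1 fell at 22 °C in controls, and 5 rose and 2 fell in knockouts. Over all genes 18.2% rose and 20.6% fell in controls, and 21.8% rose and 29.4% fell in knockouts. Thrsp, a gene of fat synthesis that thyroid hormone induces, was higher at 22 °C by 1.02 (SE 0.21, adjusted p = 0.00328) in controls and 1.71 (SE 0.21, adjusted p = 8.41e-05) in knockouts, and the malic enzyme Me1 by 2.3 (SE 0.37, adjusted p = 0.000838) and 1.37 (SE 0.37, adjusted p = 0.00737). The thyroid hormone receptor gene Thra was lower at 22 °C in both. In knockouts at 30 °C Thrsp fell (-1.2, SE 0.23, adjusted p = 0.0054) and Wsb1, part of a ligase known to mark the Dio2 enzyme for destruction, rose (1.17, SE 0.25, adjusted p = 0.0097).

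Of 18 relatives of the 10 genes that were tested, Cidec, the lipid droplet protein related to Cidea, fell in knockouts at both temperatures, by 0.71 (SE 0.14, adjusted p = 0.0257) at 22 °C and 1.21 (SE 0.16, adjusted p = 0.000896) at 30 °C on the log2 scale. It was the only relative that fell at either temperature, where 1.06% of all genes fell at 22 °C and 5.28% at 30 °C. At 30 °C Irf5 (1.64, SE 0.35, adjusted p = 0.00969), Irf8 (1.56, SE 0.38, adjusted p = 0.0165) and Ppard (0.5, SE 0.11, adjusted p = 0.0119) rose. Irf5 and Irf8 are factors of macrophages, whose markers rose in the same comparison.

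Downstream, the lists that the receptors and coactivators are known to drive are set beside Ppargc1a and Ppara. In knockouts at 22 °C, where Ppargc1a rose, 0 of 32 ERR and PGC-1 target genes of mitochondrial metabolism rose and 1, the respiratory chain subunit Ndufb5, fell (-0.47, SE 0.11, adjusted p = 0.043). Over all genes 0.91% passed as higher and 1.06% as lower, so counts this low in 32 genes say little about the list. The list's median log2 difference was -0.16, against 0.00 over all genes, and it was 0.14 against 0.24 on the FPKM as deposited and 0.08 against 0.00 with quantile normalization, so its sign depends on the scaling. Of 26 PPARα target genes, 2 rose: Acot2, an acyl-CoA thioesterase, from 41.0 ± 4.92 in controls to 224 ± 173 in knockouts (means ± SD, n = 4; log2 2.11, SE 0.39, adjusted p = 0.0169), and Fgf21, a secreted hormone, from 0.161 ± 0.123 to 5.73 ± 6.55 (log2 2.08, SE 0.47, adjusted p = 0.0407). The same pair made up the calls among 29 brown fat effector genes, since both lists hold them. Without controls 3 and 4 neither list had a gene that rose. Ucp1 had a mean of 2115 ± 861 in controls and 2068 ± 875 in knockouts at 22 °C (SD, n = 4) and did not pass (log2 -0.02, SE 0.31, limma adjusted p = 0.982).

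In knockouts at 30 °C, where Cidea fell and Ppargc1a did not pass, 13 of 32 ERR and PGC-1 targets fell and none rose. Over all genes 5.28% fell and 8.82% rose. The number of these targets that fell was 5 on the FPKM as deposited, 3 with quantile normalization and 7 when nuclear totals were made equal. Cox8b, a subunit of cytochrome oxidase, fell from a mean of 3120.3 to 1261 (-1.3, SE 0.19, adjusted p = 0.00118), and Idh3b, of the citric acid cycle, by 0.72 (SE 0.18, adjusted p = 0.0199). Of the PPARα targets 4 fell, among them the fat oxidation enzymes Ech1 and Acaa2, and Acot2 rose (1.59, SE 0.45, adjusted p = 0.0336). Of the effector genes 7 fell and 1 rose (3 fell and 1 rose with quantile normalization). Ucp1 fell from 565, 1073 and 779 in controls to 269, 361 and 319.8 in knockouts (-1.31, SE 0.36, adjusted p = 0.0302). Clstn3 (-2.21, SE 0.23, adjusted p = 0.000156) and Slc27a2 (-1.58, SE 0.27, adjusted p = 0.00323) fell as well. The macrophage and brown adipocyte marker sums given for Cidea moved in the same animals, and their part in these differences was not tested.

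Between temperatures the target lists differed in how many genes passed. Over all genes 18.2% rose and 20.6% fell at 22 °C in controls, and 21.8% rose and 29.4% fell in knockouts. Of the ERR and PGC-1 targets, 3 rose and none fell at 22 °C in controls (12 rose without controls 3 and 4), and 22 rose and 1 fell in knockouts. Of the PPARα targets, 6 rose and 2 fell in controls, and 17 rose and 2 fell in knockouts. Of the effector genes, 10 rose and 4 fell in controls, and 15 rose and 2 fell in knockouts. The largest differences among the effectors named were in Elovl3, a fatty acid elongase, at 4.12 (SE 0.77, adjusted p = 0.0018) in controls and 5.11 (SE 0.77, adjusted p = 0.000236) in knockouts. Ucp1 was higher at 22 °C by 1.35 (SE 0.34, adjusted p = 0.00824) in controls and 2.63 (SE 0.34, adjusted p = 0.000101) in knockouts. Since no gene passed the interaction test, the higher counts in knockouts are counts only.

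**Figure D4:**
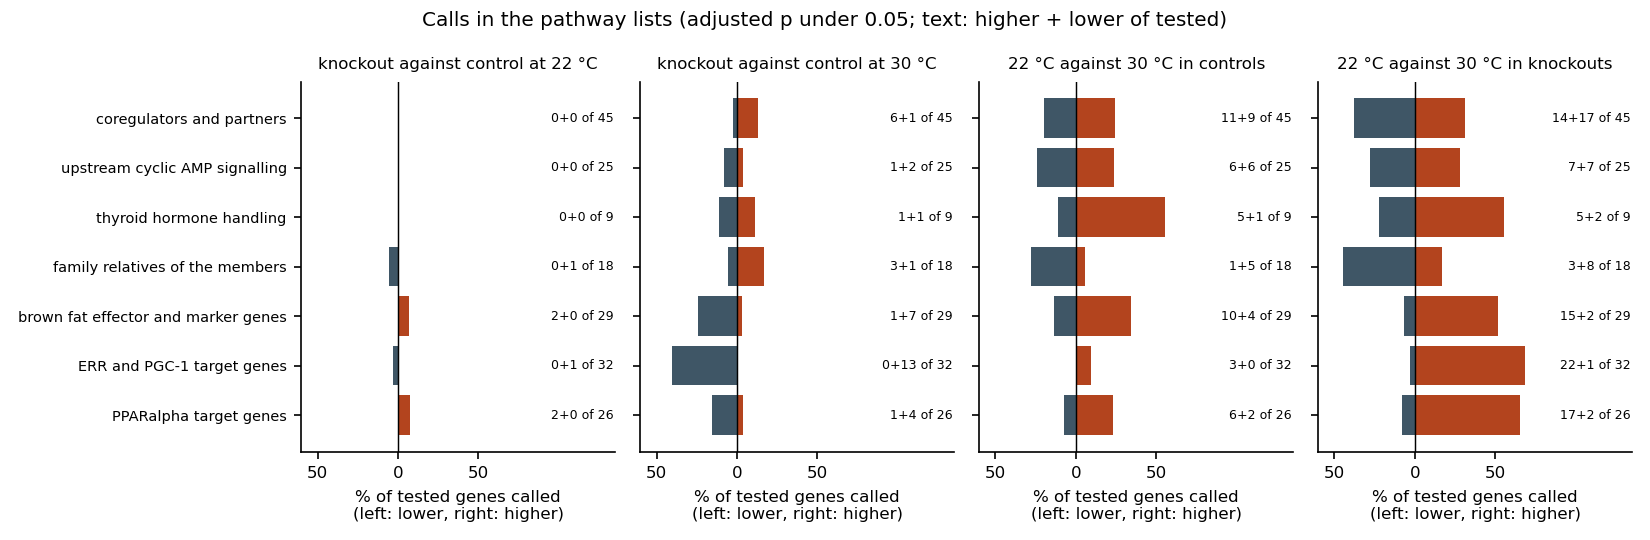
Percent of the tested genes of each of 7 lists around the 10 genes that passed an adjusted p under 0.05 as higher (bar to the right) or lower (bar to the left), in each of the 4 comparisons, with the numbers higher + lower of tested beside each bar. In knockouts at 30 °C 13 of 32 ERR and PGC-1 targets fell, against 5.28% of all genes. In knockouts 22 of 32 rose at 22 against 30 °C, against 21.8% of all genes.

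Across the 14 libraries, Pearson correlations of log2 levels between pairs of the 10 genes are given as a description, since the libraries share 4 groups and the temperature split. Ppargc1a and Dio2 had an r of 0.82, and 0.29 once group means were subtracted. Ppara with Esrrg had 0.74, and 0.55 after subtraction. Prdm16 and Ebf2 went the other way, from 0.46 to 0.62. Among 8737 genes with a sufficient level, those most like Ppargc1a over the 14 libraries were Ppfia1 (r = 0.96) and Mphosph10 (0.944), those most like Dio2 were Sdc4 (0.951) and Dcun1d5 (0.93), and those most like Cidea were Cox7a1 and Tmem14c (0.982 each). Ppara was most like Clpx (0.949), Esrrg like 5730455P16Rik (0.958) and Irf4 like Dtd2 (0.886). Ebf2 had no close match on this basis, with Golph3l highest at 0.76. Once group means were subtracted, its highest r was 0.914, with Jarid2.

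The other cell types in the tissue were followed by their markers, and the values stand beside the 10 genes without a test of their part. Skeletal muscle markers summed to 631 to 8755 in controls and 737 to 1907 in knockouts at 22 °C, and to 92.7 to 16934 in controls and 2579 to 10725 in knockouts at 30 °C. None of the 14 that were tested passed in any comparison. Of the brown adipocyte markers 2 of 10 fell in knockouts at 22 °C, against 1.06% of all genes. Macrophage markers summed to 60.3 to 89.9 in controls and 102 to 232 in knockouts at 22 °C, where none of 13 passed, against 1.97% of all genes. Preadipocyte and fibroblast markers rose in knockouts in 5 of 10 at 30 °C, against 8.82% of all genes, with sums of 261 to 308 in controls and 457 to 858 in knockouts. T cell markers stayed at or under 43.6 in every library, and of 10 nerve and Schwann cell markers Th and Dbh were under 1 throughout. That list summed to 51.8 to 74.1 in controls and 48.0 to 56.7 in knockouts at 22 °C, and to 74.2 to 109 in controls and 82.4 to 142 in knockouts at 30 °C.

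**Figure D5:**
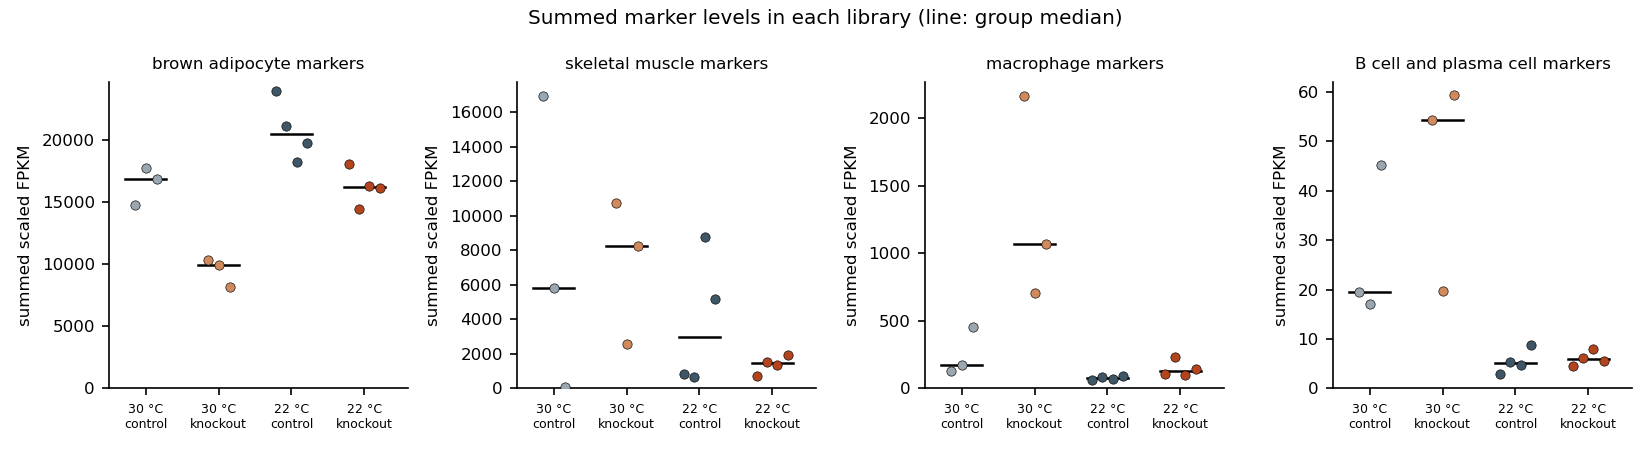
Summed scaled FPKM of brown adipocyte, skeletal muscle, macrophage, and B and plasma cell markers in each library, on linear axes that start at 0, by group; points are animals and lines are group medians. Macrophage markers stand at 703 to 2168 in 30 °C knockouts and at or below 454 in all other animals, and skeletal muscle markers scatter from 92.7 to 16934.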

How the data were processed

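RNA sequencing values of 14 brown adipose tissue samples were used as deposited. The authors deposited FPKM per gene, 1 column per animal, and per the submitters' processing notes the build was mm9. The aligner, counting tool, use of strand and annotation are not given in the sources used here. Symbols came from GENCODE M21 (34490 of 35275 identifiers matched). Libraries were scaled by median ratios over 10049 nuclear genes with at least 1 FPKM in every library (factors 1.06 to 1.22 in controls, 0.836 to 0.955 in knockouts). Depth of 15.9 to 21.3 M fragments was recovered from low values, of which 91.4 to 93.4% lay within 0.05 of whole reads. It was not used to make counts.

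Groups came from genotype and temperature labels. Each library is labelled with its own animal, so replicates are animals. Differences were tested with limma 3.58.1 in R 4.3.3 (trend, 4 group means, 14 libraries) on log2(scaled FPKM + 1) for 13079 genes with at least 1 FPKM in 3 libraries, with Benjamini-Hochberg adjustment. Fold changes on this scale understate changes of low genes. Ratios within libraries used exact two-sided permutation tests. On simulated data for knockouts against controls at 22 °C (12637 genes), 96% of 100 genes changed by 1 log2 unit and 100% of 100 changed by 2 were recovered. Of the simulated calls, 3.92% were unchanged genes. The simulation set the same spread between animals for every gene and did not take it from these animals. It therefore does not give the recovery for genes that vary as much as Ppargc1a or Dio2. From each list, the called genes with the largest differences in each direction were candidates for naming. For each of the 10 genes, the 2 genes with the highest correlation were found. The 10 genes and all lists were chosen with earlier results of these data known. GC correction and the muscle covariate were added after seeing the data. The genome build of the promoters (GRCm38.p6) differs from mm9, so no coordinates of the files were used.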

Additional observations from a re-analysis of the deposited data

Results flagged for a closer look

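In Prdm16, control 3 at 22 °C stood at 8.39 while the other 3 controls stood between 4.74 and 4.91, and the gap to the nearest control was 0.953 of the group's range. It was the only one of 20 groups of 4 animals (10 genes in the 2 groups at 22 °C) with a gap above the critical value for 4 samples, and chance alone marks about 1 in 20. This animal is also one of the 2 controls with identifiers beginning with R and had summed skeletal muscle markers of 8755. Without both of those controls, the Prdm16 log2 difference between knockouts and controls at 22 °C was 0.01 (SE 0.25, limma adjusted p = 0.983).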

How the results depend on the processing

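The log2 differences of the 10 genes in 5 comparisons were recomputed 930 times. Of these, 840 kept both direction and side of the threshold, 42 lost a call, 10 gained one and 38 changed sign. The number of the 10 genes called in knockouts at 22 °C was 1. It was 0 with no filter on low values and with only the groups compared, 4 on the FPKM as deposited (where 24.8% of all genes were called, 3167 higher and 81 lower, and the median gene moved by 0.24), and 0 to 1 when single animals were left out. At 30 °C it was 1, and 0 with no filter, as deposited, with quantile normalization, with equal nuclear totals and with only the groups compared, 2 with sample weights, and 0 to 2 without single animals. As deposited, the median gene moved by 0.31 at 30 °C (4280 higher, 291 lower, against 1154 and 691), and with equal nuclear totals calls were 386 against 75 at 22 °C and 2225 against 409 at 30 °C. For temperature in controls the number was 3, 2 with no filter, as deposited, with quantile normalization and with equal nuclear totals, 5 with sample weights, and 2 to 3 without single animals. In knockouts it was 7, 6 with no filter, with a mean FPKM of at least 5, as deposited, with equal nuclear totals, with only the groups compared and with the muscle covariate, 8 with the GC correction, and 5 to 7 without single animals. Over all genes, the 258 calls at 22 °C became 130 with no filter, 83 with only the groups compared, 461 with equal nuclear totals, 906 with sample weights and 70 to 272 without single animals. The 1845 at 30 °C became 3652 with sample weights and 877 to 2243 without single animals, and the 5072 for temperature in controls became 2831 with the GC correction. The interaction was called for no gene, for 213 with sample weights, for 197 without 30 °C knockout 2 and for 0 to 11 otherwise, none of them among the 10. No paired analysis was possible because the labels give the animals no shared replicate numbers.

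Sign changes were in differences that did not pass. In knockouts at 22 °C, Prdm16 became 0.08 and Cidea 0.13 as deposited, Cidea 0.31 with quantile normalization, Dio2 -0.01 with sample weights, and Ebf2 -0.0 with the muscle covariate. Without the 2 R controls, Prdm16 was 0.01, Ebf2 -0.01 and Esrrg -0.22. Without single animals, Prdm16 ran from -0.39 to 0.0, Ebf2 from -0.13 to 0.23, Esrrg from -0.07 to 0.35, and the log2 ratio of Esrrg to Esrra ran from -0.38 to 0.14. At 30 °C, Esrra was 0.17 as deposited, 0.01 with quantile normalization and 0.02 with equal nuclear totals. For temperature in controls, the GC correction gave Ppargc1b 0.36 and Esrra 0.42, and leaving out single animals gave Ppargc1b -0.15 to 0.01, Irf4 -0.09 to 0.66 and Ppara -0.02 to 0.46. For temperature in knockouts, Ebf2 was -0.03 as deposited, -0.1 with the GC correction and -0.03 with the muscle covariate, and Irf4 was 0.12 with quantile normalization and 0.19 with sample weights. Leaving out single animals gave Ebf2 -0.09 to 0.26 and Irf4 -0.36 to 0.25, and in the interaction Ebf2 -0.3 to 0.05 and Irf4 -0.74 to 0.01. Depth gave the 10 genes about 98 to 45677 reads per library. Each limma SE uses a spread pooled over all groups in the fit and drawn toward the trend of all genes. The groups in the main fit held 3 or 4 animals.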
